A study of Mus musculus with 9 samples.

Results

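The small nucleolar RNA (snoRNA) host genes *Gas5*, *Snhg1*, *Snhg3*, *Snhg5*, *Snhg6*, *Snhg8* and *Snhg12* were chosen by name, with earlier results of these data known but with no measured value in the rule. Of these 7 genes, 5 had a row in both deposited gene tables, which held 13259 genes in common. *Snhg6* and *Snhg8* had no gene under these or older symbols in the annotation used for counting (GENCODE M1) and were therefore in neither table. RNA-seq had been carried out on AML12 cells, a mouse hepatocyte line grown with insulin, transferrin, selenium and dexamethasone. The 9 libraries fell into 3 groups of 3, which were control cells (Ctrl), cells infected with lentivirus carrying *Srrm2* short-hairpin RNA (shRNA) 1 (sh1), and cells infected with *Srrm2* shRNA 2 (sh2). The hairpin groups were labelled as day 5 of infection. *Srrm2* encodes a scaffold protein of nuclear speckles, the nuclear bodies rich in splicing factors. AML12 is a single immortalized line, and nothing in the labels says whether the libraries of a group came from separate cultures.

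Small nucleolar RNAs guide chemical modification of ribosomal RNA and other RNAs in the nucleolus. C/D box snoRNAs guide 2′-O-methylation and carry short C and D box motifs near their ends, whereas H/ACA box snoRNAs guide pseudouridylation and carry an ACA motif near the 3′ end. Most vertebrate snoRNAs are cut out of the introns of longer host transcripts after splicing. Some hosts encode ribosomal or nucleolar proteins, and others, such as *Gas5* and the *Snhg* genes, give spliced RNAs with little coding capacity, many of which are known to be short-lived because nonsense-mediated decay removes them when they are translated.

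The annotated snoRNAs of the host genes are described first, since they define the family. Within the 5 listed hosts lay 25 annotated snoRNA genes on the same strand, 20 of the C/D kind and 5 of the H/ACA kind. *Gas5* held 9 C/D snoRNAs, *Snhg1* held 8 C/D snoRNAs, *Snhg3* held 2 H/ACA snoRNAs, *Snhg5* held 2 C/D snoRNAs, and *Snhg12* held 3 H/ACA snoRNAs together with the C/D snoRNA *Snord99*. The 8 snoRNAs of *Snhg1* are shown because this host differed most between the tables. They lie on chromosome 19 of the mouse assembly NCBIM37 (mm9), + strand, and are given 5′ to 3′, with capitals marking the letters TGATGA in the first 25 bases and CTGA in the last 20 bases.

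SNORD25, chr19:8798486-8798550: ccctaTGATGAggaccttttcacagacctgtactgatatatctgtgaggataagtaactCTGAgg
SNORD26, chr19:8798741-8798815: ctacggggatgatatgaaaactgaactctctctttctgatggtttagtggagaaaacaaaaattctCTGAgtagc
SNORD27, chr19:8799021-8799092: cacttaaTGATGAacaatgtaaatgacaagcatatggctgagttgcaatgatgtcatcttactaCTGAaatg
SNORD28, chr19:8799358-8799433: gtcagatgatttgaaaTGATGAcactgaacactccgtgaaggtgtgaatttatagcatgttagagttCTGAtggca
SNORD29, chr19:8799582-8799646: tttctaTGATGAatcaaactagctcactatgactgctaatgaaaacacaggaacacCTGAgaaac
SNORD30, chr19:8799831-8799899: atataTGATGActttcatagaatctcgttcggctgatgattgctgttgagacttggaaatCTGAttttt
SNORD31, chr19:8800084-8800150: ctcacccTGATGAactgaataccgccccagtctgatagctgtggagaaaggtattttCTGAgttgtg
Snord22, chr19:8800356-8800481: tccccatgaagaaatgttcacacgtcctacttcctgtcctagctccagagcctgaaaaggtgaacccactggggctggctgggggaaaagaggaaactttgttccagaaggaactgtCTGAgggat

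The letters CTGA of a D box were found in the last 20 bases of 20 of the 20 C/D snoRNAs of the host genes. The letters TGATGA, a common form of the C box, were found in the first 25 bases of 16 of the 20, and SNORD26 and *Snord22* of *Snhg1* were among those without them. The letters ACA were found in the last 8 bases of 4 of the 5 H/ACA snoRNAs. The 2 snoRNAs of *Snhg5* are copies of SNORD50 and are shown as the most alike pair inside a host. Both lie on the − strand of chromosome 9 of NCBIM37 and are printed 5′ to 3′ with the same capitals.

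SNORD50, chr9:88416635-88416706: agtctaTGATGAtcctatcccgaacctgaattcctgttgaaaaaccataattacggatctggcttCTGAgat
SNORD50, chr9:88416367-88416438: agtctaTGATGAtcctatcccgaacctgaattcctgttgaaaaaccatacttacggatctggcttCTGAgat

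These copies of 72 bases differed at 1 position, A50C, counted from 1 at the 5′ end with the base of the upper copy given first. *Snora73a* and *Snora73b* of *Snhg3*, each 205 bases long, differed at 7 positions and were 96.6% identical. Although 1552 snoRNA genes were annotated in GENCODE M1, 0 were in either table, so the values below are those of the host genes and say nothing of the level of the snoRNAs.

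In the annotation, the hosts differed in how much of the gene was counted as exon. *Snhg1* (ENSMUSG00000090867.1, a lincRNA at chromosome 19, 8797986 to 8800932, + strand) had exon sequence over 100% of its 2947 bases. Its 2 transcripts have 2 to 4 exons, the longest is 2719 bases long, and any intron of 1 transcript is exon in the other. *Gas5* (ENSMUSG00000053332.7, a lincRNA at chromosome 1, 162964553 to 162968670, + strand) had 25 annotated transcripts of 2 to 12 exons from 20 start positions, and 91.3% of its 4118 bases were exonic in at least 1 of them. *Snhg12* (ENSMUSG00000086290.1, a lincRNA at chromosome 4, 131864593 to 131866939, + strand) was exonic over 69.3% of its 2347 bases. *Snhg5* (ENSMUSG00000032424.7, a lincRNA at chromosome 9, 88415894 to 88417721, − strand) had 1 transcript of 5 exons covering 54.3% of the gene. *Snhg3* (ENSMUSG00000085241.1, a processed transcript at chromosome 4, 131903929 to 131909601, − strand) was exonic over 17.4% of its 5673 bases. Reads from introns that keep their sequence in another annotated transcript therefore count towards *Snhg1* and most of *Gas5* and do not count towards most of *Snhg3*.

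Of the 25 snoRNAs, 20 lay wholly within bases annotated as exon of their host in at least 1 transcript. These were the 9 of *Gas5*, the 8 of *Snhg1* and 3 of the 4 of *Snhg12*. Both SNORD50 copies of *Snhg5*, *Snora73b* of *Snhg3* and *Snora16a* of *Snhg12* lay outside annotated host exons, and *Snora73a* overlapped an exon block of *Snhg3* by 159 of its 205 bases. Each snoRNA of *Gas5* lay in an intron of 12 to 17 of the transcripts of *Gas5* as well. In *Snhg1*, by contrast, SNORD25, SNORD27, SNORD28, SNORD29 and *Snord22* lay in an exon of 2 transcripts and in an intron of 0. SNORD26, SNORD30 and SNORD31 lay in an exon of 1 transcript and in an intron of 1.

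**Figure D1:**
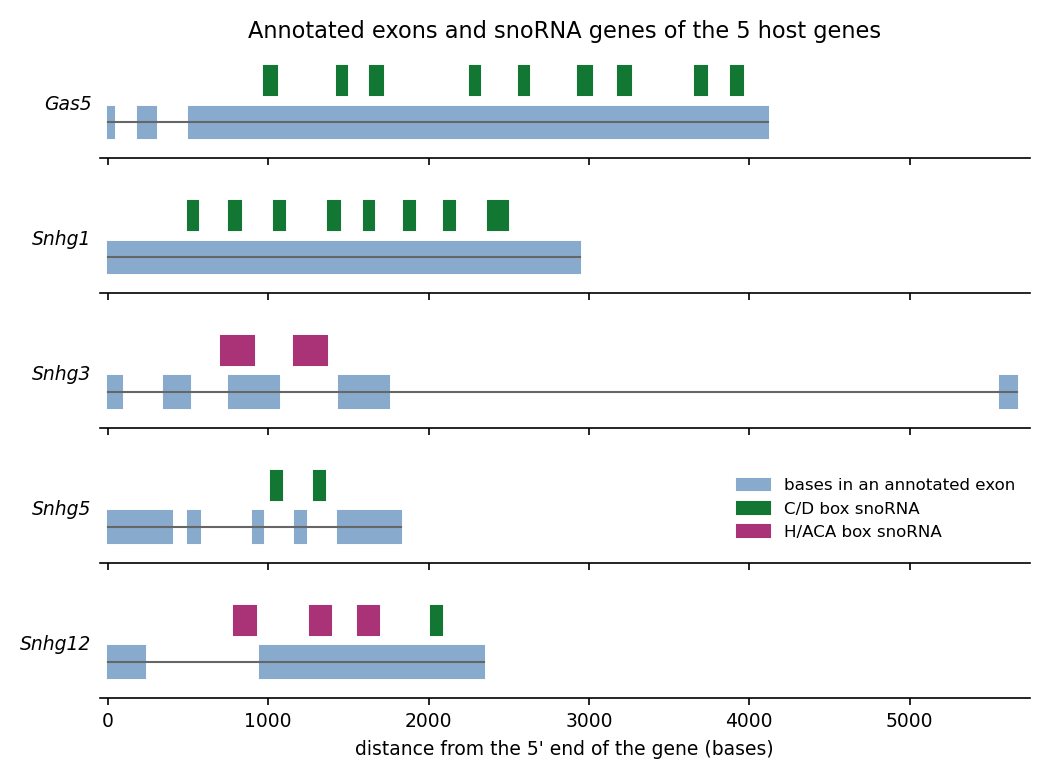
Maps of the 5 host genes, drawn from the 5′ end of each gene in bases. The lower bars mark bases in any annotated exon and the upper boxes the annotated C/D (green) and H/ACA (purple) snoRNAs, and the exon bar is unbroken along *Snhg1* (100% of its bases) and broken along *Snhg3* (17.4%).

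Neighbouring genes bear on what could be counted for a host. *Snhg3* overlaps *Rcc1*, which encodes the nucleotide exchange factor of Ran, on the same strand with 135 shared exon bases, and overlaps the unlisted lincRNA *Gm17300* on the other strand with 705 shared exon bases, so the level of *Snhg3* is uncertain. *Gas5* overlaps the transcription factor gene *Zbtb37* on the other strand with 0 shared exon bases. *Snhg1* lies 127 bases from *Slc3a2*, the heavy chain of an amino acid transporter, on the other strand. *Snhg12* lies 739 bases from *Trnau1ap*, a gene of selenocysteine tRNA function. How such overlaps were resolved between genes was not tested.

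The start of the host transcripts is of interest because *Gas5* and other hosts are known as 5′ terminal oligopyrimidine (TOP) genes, whose RNAs begin with C followed by a run of C and T. The windows below, from RefSeq on GRCm38.p6, run from 10 bases before the start base to the 50th base from it, 5′ to 3′, and capitals mark the C and the 4 or more C or T bases after it where such a run began within 10 bases of the start. They show which hosts carry the letters and which do not.

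Gas5, first start, chr1:161034591-161034650, + strand: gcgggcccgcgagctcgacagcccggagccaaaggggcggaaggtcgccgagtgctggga
Gas5, second start, chr1:161035156-161035215, + strand: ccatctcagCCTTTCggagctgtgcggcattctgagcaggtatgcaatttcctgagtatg
Snhg1, chr19:8723477-8723536, + strand: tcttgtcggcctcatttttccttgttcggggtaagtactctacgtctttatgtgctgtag
Snhg3, chr4:132353637-132353696, − strand: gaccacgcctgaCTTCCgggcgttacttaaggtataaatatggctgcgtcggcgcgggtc
Snhg5, chr9:88522848-88522907, − strand: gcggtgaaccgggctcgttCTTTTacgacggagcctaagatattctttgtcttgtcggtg
Snhg8, chr3:123508287-123508346, − strand: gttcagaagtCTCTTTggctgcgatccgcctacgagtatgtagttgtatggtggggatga
Snhg12, chr4:132308668-132308727, + strand: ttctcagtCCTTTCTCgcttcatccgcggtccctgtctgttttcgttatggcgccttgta

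A run was found for 5 of the 6 host genes that had a RefSeq start (*Gas5* at the second of its 2 starts, *Snhg3*, *Snhg5*, *Snhg8* and *Snhg12*). The same search, on the transcribed strand only, found a run in 29% of all 32851 promoters. That share is per start, and counted per start the host genes had a run at 5 of 7. When the run had to begin at the start base itself, 1 of the 6 genes (*Snhg8*, 1 of 7 starts) and 1.05% of all promoters had it. *Snhg1*, the host that differed most between the tables, had no such run within 10 bases of its annotated start. Within 50 bases of the start, 6 of the 6 genes (6 of 7 starts) had a run, *Snhg1* included, as had 76.7% of all promoters.

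Each deposited table gives the mean normalized count of a gene over the control libraries and the libraries of 1 hairpin, and the authors' mean is a pooled value with no spread per library. By the titles of the libraries, both tables would share the same 3 controls, but the labels leave a doubt. The descriptions of the 3 control libraries all name the table of sh1, whereas that of control replicate 1 alone names the table of sh2, and those of replicates 2 and 3 name tables of hairpins 3 and 4, which are no groups here. Every comparison between the tables below assumes that the same 3 control libraries entered both. No SD, n or test can therefore be given for any level or difference below, and every comparison between the tables is a description. The tables also hold the comparisons of each hairpin with the control made by the authors, which were not used, so that no change from control to knockdown is given for any gene here.

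The host genes spanned the 31.0th (*Snhg12*) to the 90.8th (*Gas5*) percentile of level among the genes of the sh1 table. *Gas5*, named for its accumulation in growth-arrested cells, had the highest authors' mean normalized count in the sh1 table, 1030, and a mean of 1340 in the sh2 table. *Snhg1* had means of 742 and 1302. *Snhg3* had means of 149 and 186, close to those of *Snhg5* at 142 and 172. *Snhg12* was the lowest, with means of 54.3 and 72.8. The order in the sh1 table was thus *Gas5*, *Snhg1*, *Snhg3*, *Snhg5* and *Snhg12*, and the same order was seen in the sh2 table, where *Gas5* and *Snhg1* lay close to each other. Without a spread, neighbours in this order cannot be told apart by a test.

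**Figure D2:**
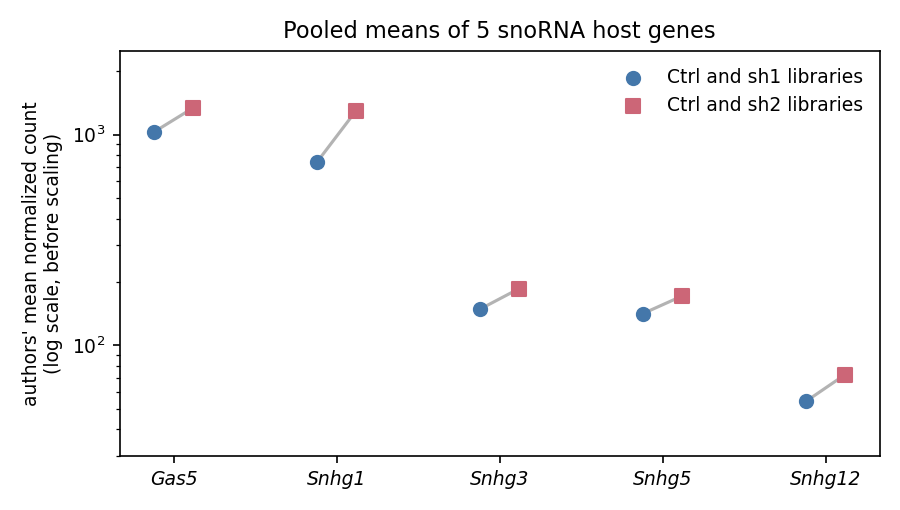
Authors' mean normalized count (log scale, before scaling) of each host gene over the Ctrl and sh1 libraries (circles) and over the Ctrl and sh2 libraries (squares). Each value is a pooled mean and carries no error bar, and the square is above the circle for 5 of 5 genes, with the widest step for *Snhg1* (742 to 1302). Before scaling, the median log2 ratio over all genes in both tables was 0.074, so most genes were higher in the sh2 table.

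Per kilobase of exon, the distance between the hosts was smaller. In the sh1 table, *Gas5* had 274 mean normalized counts per kilobase, *Snhg1* 252, *Snhg3* 151, *Snhg5* 143 and *Snhg12* 33.4. In the sh2 table, *Snhg1* was above *Gas5*, with 442 against 356 mean normalized counts per kilobase. Non-coding here means every gene whose annotated type is not protein-coding. Among the 754 non-coding genes in both tables, ranked by the average of the 2 values per kilobase, *Snhg1* was 6th, *Gas5* 7th, *Snhg3* 17th, *Snhg5* 19th and *Snhg12* 80th. Above them were *Malat1* and *Neat1*, abundant nuclear RNAs of speckles and paraspeckles, then *Gm12840*, *Gm13834* and *2410006H16Rik*, the last of which itself has 3 annotated snoRNAs inside it. With the length of the longest transcript in place of all exon bases, *Snhg3* had 256 mean normalized counts per kilobase in the sh1 table and took 9th place, and *Snhg12* had 58.2. With no division by length, *Gas5* was 4th, *Snhg1* 7th, *Snhg3* 44th, *Snhg5* 48th and *Snhg12* 96th. Together the 5 hosts made up 0.0344% of the summed means of the sh1 table and 0.0481% of those of the sh2 table.

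**Figure D3:**
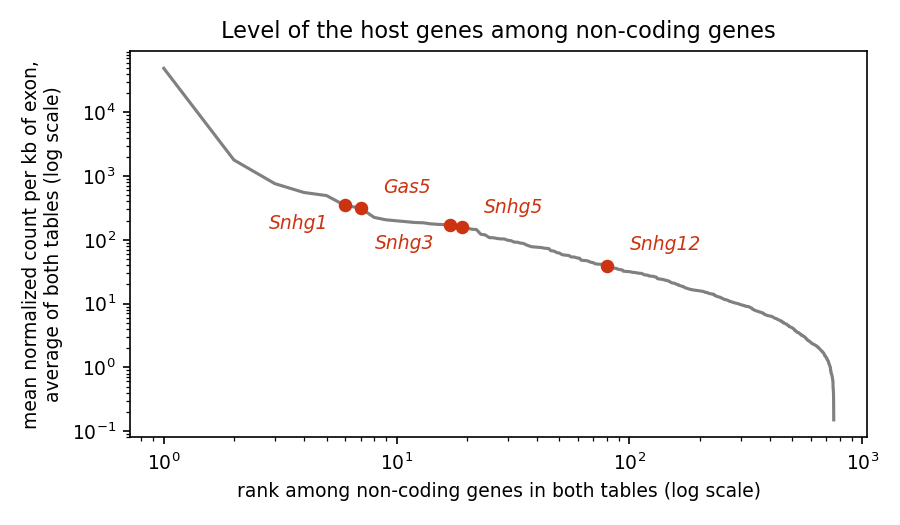
Mean normalized count per kilobase of exon, averaged over both tables, against rank for the 754 non-coding genes in both tables (both axes log scale). Red points mark the host genes, which lie at ranks 6 (*Snhg1*), 7 (*Gas5*), 17 (*Snhg3*), 19 (*Snhg5*) and 80 (*Snhg12*).

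The pooled means of the host genes were higher in the sh2 table than in the sh1 table for 5 of the 5 genes, before and after scaling, where 51.2% of the 11451 genes compared were higher after scaling. Before scaling, the median log2 ratio over all genes in both tables was 0.074, so most of them were higher in the sh2 table. To compare the tables, the ratio of pooled means was divided by its median of 1.05 over the 7757 genes whose means reached 100 in both, which takes this median gene as equal and the shared controls as equal up to that scale. If the same controls entered both tables, a higher pooled mean in the sh2 table means a higher mean in the sh2 libraries than in the sh1 libraries, and the ratio of the pooled means is a lower bound of the fold between the hairpin groups. The folds and differences in normalized counts given below hold only under that assumption. They describe the observed means of these libraries, whose spread is unknown, so that "at least" does not allow for variation between libraries. The ratio tells neither which hairpin group departs from the control nor in which direction.

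*Snhg1* stood furthest apart. Its scaled log2 ratio of sh2 table over sh1 table was 0.74, so that its mean was at least 1.67-fold higher in the sh2 libraries than in the sh1 libraries, by 999.7 normalized counts on the scale of the sh1 table. This ratio was 58th highest among the 11451 genes whose means reached 10 in both tables. Among the 3023 genes whose mean in the sh1 table was within 2-fold of that of *Snhg1*, 4 had a ratio at or above it, itself included, and the 5th and 95th percentiles of the log2 ratio were -0.25 and 0.20. Its neighbour *Slc3a2* had a log2 ratio of -0.13, with pooled means of 3518 and 3363, and *Wdr74*, the nearest listed gene on the other side, one of -0.02.

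*Snhg12*, which holds *Snora16a*, *Snora44*, *Snora61* and *Snord99*, had a scaled log2 ratio of 0.35, a fold of at least 1.28 and a difference of 30.2 normalized counts. Its level is low, and 10.3% of the 2674 genes within 2-fold of its mean were at least 1.2-fold higher in the sh2 table, with a 95th percentile of 0.37 that lay above *Snhg12*. *Gas5* had a scaled log2 ratio of 0.31, a fold of at least 1.24 and a difference of 497 normalized counts. Of the 2368 genes within 2-fold of its level, 1.90% were at least 1.2-fold higher in the sh2 table, and 24 had a ratio at or above that of *Gas5*, itself included. The overlapping *Zbtb37* had a log2 ratio of 0.05.

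*Snhg3* and *Snhg5* differed less between the tables. *Snhg3* had a scaled log2 ratio of 0.26, just under the fold of 1.2, with a difference of 57.8 normalized counts, while *Rcc1*, which overlaps it, had pooled means of 148 and 165 and a log2 ratio of 0.09. *Snhg5* had a log2 ratio of 0.21, a fold of at least 1.16 and a difference of 44.1 normalized counts. Among genes within 2-fold of its level, 323 of 4078 had a ratio at or above that of *Snhg5*. Its neighbours *Syncrip* and *Zfp949* had log2 ratios of -0.06 and 0.12.

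Pooled means at least 1.2-fold apart (log2 ratio of 0.26) were counted for all 11451 genes above this level. Of these genes, 6.44% were at least 1.2-fold higher in the sh2 table and 13.1% were at least 1.2-fold apart in either direction. Of the 5 host genes, *Gas5*, *Snhg1* and *Snhg12* were past that fold, all 3 higher in the sh2 table, and 0 were past it in the other direction. The median log2 ratio of the 5 hosts was 0.31, against a median of 0.0043 and quartiles of -0.098 and 0.10 over all genes. Among the 352 non-coding genes, the median was 0.0089 and 11.9% were at least 1.2-fold higher in the sh2 table.

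**Figure D4:**
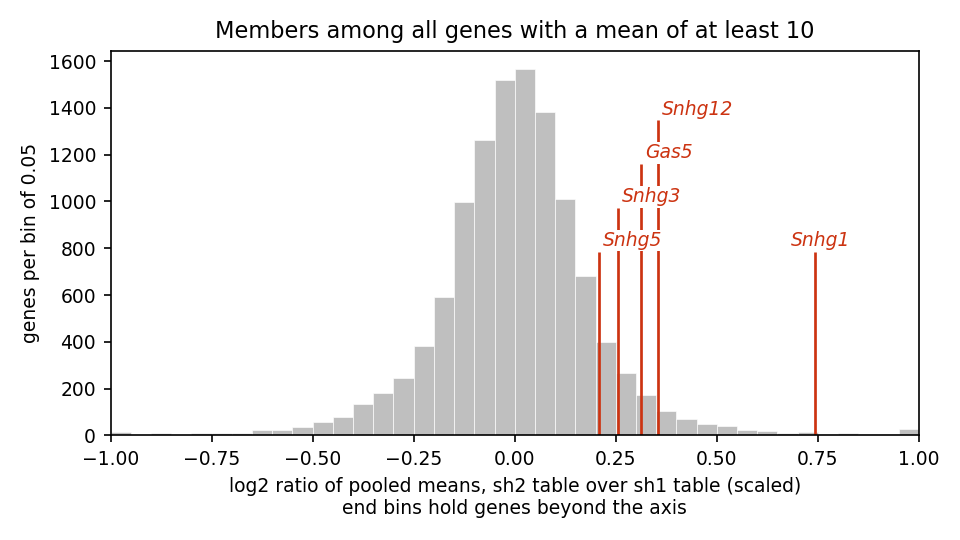
Number of genes per bin of 0.05 of the scaled log2 ratio of pooled means, sh2 table over sh1 table, for the 11451 genes whose means reached 10 in both tables. Red lines mark the 5 host genes, which lie right of the median of all genes (0.0043), from *Snhg5* at 0.21 to *Snhg1* at 0.74. The height of the lines has no meaning.

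Other non-coding snoRNA hosts were taken from a list of names that left out the 5 genes above. Of 16 names (*Snhg2*, an older name of *Gas5*, was left out), 9 were in the tables and 8 reached a mean of 10 in both. Of these 8, 7 had a higher scaled pooled mean in the sh2 table and 1 a lower one, with a median log2 ratio of 0.24. Past the fold of 1.2 were 2, or 5 with no scaling. Over all 11451 genes, 51.2% were higher in the sh2 table and 6.44% at least 1.2-fold higher. Past the fold in either direction were 1496 of these genes, or 1727 with no scaling. The share of all genes past the fold upward was not computed with no scaling, so the 5 hosts have no matching background. Among non-coding genes, 52.8% were higher and 11.9% at least 1.2-fold higher. *Snhg7* had pooled means of 164 and 217 and a log2 ratio of 0.33. *Snhg4* had pooled means of 92.3 and 119 and a log2 ratio of 0.30. These values lie beside those of *Gas5* and *Snhg12*.

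The other 6 were within the fold. *Zfas1*, which GENCODE M1 lists as the protein-coding gene *1500012F01Rik*, had pooled means of 207 and 258 and a log2 ratio of 0.26. *Snhg17* (*9430008C03Rik*) had 132 and 164, a log2 ratio of 0.25, and *Snhg16* (*1810032O08Rik*, likewise listed as protein-coding) had 60.6 and 74.3, a log2 ratio of 0.23. *Dancr* (*2700023E23Rik*) had a log2 ratio of 0.18 and *Snhg15* (*Gm11974*) one of 0.05. *Snhg20* (*2810008D09Rik*) had pooled means of 56.0 and 57.8 and was the only lower one of the 8, with a log2 ratio of -0.02. *Epb4.1l4aos* (*2410004N09Rik*) was below the minimum level, with means of 9.70 and 12.9. *Snhg9*, *Snhg11*, *Snhg14*, *Snhg18*, *Meg3* and *Rian* were annotated and in neither table, and *Snhg10* was not annotated.

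Genes were also classed by position alone, by whether a whole annotated snoRNA lay inside the gene on the same strand, a classification added after the values had been seen. Some of the genes just named recur in it (*Snhg4*, *Snhg7*, *Snhg15*, *Snhg17*, *Snhg20* and *Dancr* among the non-coding genes, and *Zfas1* and *Snhg16*, by their annotated type, among the protein-coding ones). Among 13 further non-coding genes with a snoRNA inside, 12 had a higher scaled pooled mean in the sh2 table (92.3%), with a median log2 ratio of 0.22. Past the fold of 1.2 were 4 of the 13, which were *Snhg7*, *Snhg4*, *1110038B12Rik* (94.0 and 121, log2 ratio 0.29) and *2700038G22Rik* (30.2 and 38.4, log2 ratio 0.28), and 0 were past it in the other direction. Among the 334 non-coding genes without a snoRNA inside, 50.6% had a higher scaled pooled mean in the sh2 table, 10.5% were at least 1.2-fold higher and 9.88% at least 1.2-fold lower, with a median log2 ratio of 0.0014. Some of these 334 carry symbols of pseudogenes or coding genes, such as *Pisd-ps1* and *Serpina3h*. The groups differed in level too, with a median mean in the sh1 table of 57.7 for the 13 hosts and 25.6 for the 334 other genes. The part of level in the difference between these classes was not tested.

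Protein-coding genes with a snoRNA inside had a median log2 ratio nearer to that of all genes than the non-coding hosts had. Of 223 such genes, 60.1% had a higher scaled pooled mean in the sh2 table, 2.69% were at least 1.2-fold higher and 4.04% at least 1.2-fold lower, and the median log2 ratio was 0.033. Among the 10876 protein-coding genes without a snoRNA inside, 50.9% had a higher scaled pooled mean in the sh2 table, 6.34% were at least 1.2-fold higher and 6.59% at least 1.2-fold lower, and the median was 0.0036. The 223 hosts had a median mean in the sh1 table of 595, against 205 for the 10876 other genes. No test of the difference between these classes could be made, because the genes share the same libraries and the tables give no value per library.

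**Figure D5:**
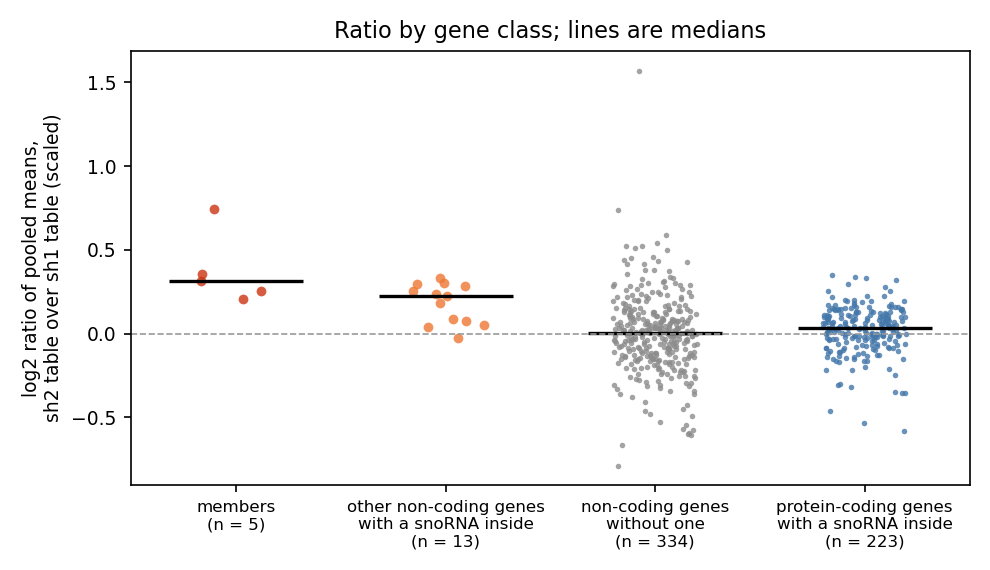
Scaled log2 ratio of pooled means, sh2 table over sh1 table, for the 5 host genes, 13 other non-coding genes with a snoRNA inside, 334 non-coding genes without one and 223 protein-coding genes with one. Each point is a gene whose means reached 10 in both tables, spread sideways only for display, and black lines are medians (0.31, 0.22, 0.0014 and 0.033).

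The listed protein-coding hosts were genes of translation, chaperones and nucleolar proteins. Of 23 such genes, 20 had a higher scaled pooled mean in the sh2 table and 3 a lower one, 0 were past the fold of 1.2, and the median log2 ratio was 0.084. Over all genes, 51.2% were higher, 6.44% at least 1.2-fold higher and 6.63% at least 1.2-fold lower in the sh2 table. The 23 genes had a high median mean in the sh1 table, 2608. Near the lower level of *Gas5* (1030), 1.90% of genes were at least 1.2-fold higher. The share at the level of the 23 was not computed, so their count past the fold cannot set them apart from other genes. The 3 with the highest levels per kilobase were *Tpt1*, *Eef2* and *Rps12*. *Tpt1*, which encodes the translationally controlled tumour protein, had pooled means of 22781 and 25668 and a log2 ratio of 0.10. *Eef2*, the translation elongation factor that moves the ribosome along the mRNA, had 18527 and 21724, a log2 ratio of 0.16, and *Rps12*, a protein of the small ribosomal subunit, had 2780 and 3337, a log2 ratio of 0.20, which was the highest of the 23.

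The proteins that bind snoRNAs did not differ past the fold of 1.2 between the tables, as 13.1% of all genes did in either direction. Of all genes, 51.2% were higher in the sh2 table. Of the 4 core proteins of C/D particles, 2 were higher and 2 lower in the sh2 table, with a median log2 ratio of 0.0055. *Fbl*, the methyltransferase fibrillarin, had pooled means of 399 and 465 and a log2 ratio of 0.15. *Nop58* and *Nop56*, the scaffold proteins of the particle, had log2 ratios of -0.03 and -0.11, with *Nop56*, itself a snoRNA host, at 808 and 785. Of the 4 core proteins of H/ACA particles, 4 were higher in the sh2 table and 0 past the fold, with a median log2 ratio of 0.096. *Dkc1*, the pseudouridine synthase dyskerin and also a snoRNA host, had pooled means of 252 and 292 and a log2 ratio of 0.15, *Nhp2* one of 0.10 and *Nop10* one of 0.02.

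The factors that assemble these particles and those that degrade host transcripts had medians near that of all genes. The median over all genes was 0.0043, with 51.2% higher in the sh2 table and 13.1% past the fold in either direction. Of 12 genes for 11 assembly factors, 7 were higher and 5 lower, 0 were past the fold, and the median log2 ratio was 0.015. *Ruvbl1*, an ATPase of the R2TP assembly machinery, had the highest ratio among them, with pooled means of 252 and 311 and a log2 ratio of 0.24, and *Nolc1*, a nucleolar chaperone of snoRNA particles, had one of -0.07. *Taf9* is annotated as 2 overlapping genes, so that its log2 ratios of -0.11 and 0.02 are uncertain. Of 12 RNA decay factors, 7 were higher and 5 lower, 0 were past the fold, and the median was 0.0089. *Smg1*, the kinase that starts nonsense-mediated decay, had pooled means of 3193 and 3512 and a log2 ratio of 0.07. The helicase gene *Upf1* also had a log2 ratio of 0.07, and *Xrn2*, a nuclear exonuclease that trims snoRNAs, had pooled means of 893 and 1038 and one of 0.15.

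*Srrm2*, the targeted gene, had pooled means of 3428 and 3759 and a scaled log2 ratio of 0.07, but pooled means that include the controls cannot check the labels of the knockdown. As to the cells, 11 of the hepatocyte markers were listed, among them *Ttr* (2497 and 2640) and *Hnf4a* (1498 and 1624). Others were low, such as *Apoa1* (39.4 and 38.9) and *Afp* (10.8 and 8.42). *Alb* had a log2 ratio of -0.31 and *Serpina1a* one of 0.36. The ductal markers *Krt19* (2851 and 2753), *Krt7* (1351 and 1617) and *Sox9* (670 and 750) were listed as well and *Epcam* was not. By mean normalized count, *Krt19* was thus above *Ttr* in both tables. Per kilobase of exon the order was the reverse. *Ttr* had 2049 and 2165 mean normalized counts per kilobase, and *Krt19* had 1537 and 1484. Of the endothelial markers, 0 of 4 were listed. Of the macrophage or leukocyte markers *Cd68* (25.1 in the sh1 table) and *Ptprc* (5.30) were listed and *Emr1* and *Clec4f* were not. Of the stellate cell markers *Col1a1* (3.85) and *Des* (8.03) were listed at these low means, and *Col1a2*, *Acta2*, *Lrat* and *Pdgfrb* were not listed. The part of these differences in the ratios of the host genes was not tested. Fewer cells and less RNA per cell cannot be told apart in such libraries.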

How the data were processed

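RNA-seq of 9 AML12 libraries (3 each of Ctrl, sh1 and sh2, grouped by their titles) was used. Per the submitters' methods, polyA-enriched, strand-specific libraries were mapped to mm9 with TopHat2, uniquely mapped pairs were counted on GENCODE M1 genes with HTSeq, and DESeq2 version 1.8.2 was run for each hairpin against the control. The strand setting of the counting is not given in the sources used here. The authors deposited 1 table per hairpin. The signal used from each deposited table is the authors' mean normalized count (count divided by a size factor, averaged over control and hairpin libraries). The other deposited columns hold the authors' comparison (log2 fold change, its standard error, the statistic, the p-value and the adjusted p-value) and were not used. Read totals per library are unknown, so no interval or detection limit is given. The tables list 13424 and 13478 genes with summed means of 6144610 and 6393460.

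Gene identifiers were all matched to GENCODE M1 on NCBIM37 (mm9), and older symbols through RefSeq. The pooled means were compared as a ratio scaled by the median ratio of genes whose means reached 100 in both tables, which assumes that the same control libraries entered both tables and differ between them only by that scale. The descriptions of control replicates 2 and 3 do not name the sh2 table. A fold of 1.2 and a minimum mean of 10 were used for counts of genes. Levels per kilobase used all exon bases of a gene. The calculation of the ratio was tried on simulated data with known differences, in which the same controls entered both tables. That trial therefore cannot test whether the controls were shared. Only genes with means of at least 100 were changed in it, so it did not cover the level of *Snhg12*. Alternatives were other scales, folds, minimum levels and lengths. Named genes were the members, the listed non-coding hosts, the 3 highest per kilobase of each list and any past the fold, *Srrm2* and the 5 highest non-coding genes. A few others, such as neighbours, *Ruvbl1*, markers and hosts by position, were chosen after values were seen. The members and lists were chosen with earlier results of these data known. Python 3.11.15, numpy 2.4.6, pandas 2.3.3, pysam 0.24.0 and matplotlib 3.10.9 were used.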

Additional observations from a re-analysis of the deposited data

How the results depend on the processing

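The pooled ratios of *Gas5*, *Snhg1*, *Snhg3*, *Snhg5* and *Snhg12* stayed higher in the sh2 table with no scaling, with the median ratio of all genes and with the ratio of the summed means as scale, and the median log2 ratio of the 5 hosts ranged from 0.31 to 0.38. Each scale moved every log2 ratio by the same amount, at most 0.068, so the direction of these 5 ratios could not change. The number of hosts past the fold was 3 as reported, 5 at a fold of 1.1, 1 (*Snhg1*) at a fold of 1.5, 4 with the ratio of the summed means and 5 with no scaling. These hosts were all higher in the sh2 table, whereas the counts over all genes below take either direction. Over all 11451 genes compared, 1496 (13.1%) were past the fold in either direction, 4101 at a fold of 1.1 and 181 at a fold of 1.5. With no minimum level, 2457 of 13259 genes were past the fold, and with a minimum of 100, 577 of 7757. Of the same 11451 genes, 1503 were past the fold with the ratio of the summed means and 1727 with no scaling. The share of all genes past the fold upward was not computed for these alternatives. The all-gene counts at folds of 1.1 and 1.5 and with these scales were chosen after seeing the data. The number of host genes with a pyrimidine run fell from 5 to 1 when the run had to begin at the start base, and was 6 when it began within 50 bases. Of the 8 other non-coding hosts, 2 were past the fold as reported, 6 at a fold of 1.1, 0 at a fold of 1.5, 3 with the ratio of the summed means and 5 with no scaling, these alternatives being chosen after seeing the data. Of 52 alternative values, 35 moved by no more than 0.1 on the log2 scale or 1.5 times, and 17 moved further. A change of direction was not possible among them, because each scale moved all ratios alike and counts, levels and ranks have no direction.

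Depth per library is unknown, and *Snhg12* has the lowest level of the 5 hosts. Leave-one-out values were not run, and no paired analysis was possible because the tables hold no value per library.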
